A study of Caenorhabditis elegans with 2 samples.

Results

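The genes described here encode the machinery of oxidative phosphorylation in C. elegans, the respiratory chain and the ATP synthase of the mitochondrial inner membrane. They were chosen by symbol as the protein-coding genes named nuo, cox, cco, cyc, ucr, sdha, sdhb, sdhd, atp, asb or asg, with gas-1, isp-1 and mev-1 added. The rule gave 45 of the 19973 protein-coding genes on the nuclear chromosomes. It used no measured value, but it was chosen with earlier results of these data known. No gene now carries a cco symbol.

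Binding of MADF-9 was mapped by chromatin immunoprecipitation and sequencing in whole L4 larvae labelled 48 hours, from worms synchronized by starving L1 larvae after bleaching. MADF-9 is named for its MADF domain, which resembles the DNA-binding domain of Myb. There was 1 group with 2 biological replicates. Its worms, of strain RW12324, had the tags TY1, EGFP and 3xFLAG inserted at the madf-9 locus on chromosome IV (allele st12324), and an antibody against GFP was used. Since whole animals were used, binding in a few cells and weak binding in many cannot be told apart. Worms without the tag were not analysed here. No comparison of conditions was possible, so the values below are a description of 1 group. The files hold peak lists and no read counts, so depth is unknown, and p-values are not given.

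Complex I takes electrons from NADH and complex II from succinate. Complex III passes them to cytochrome c, and complex IV, cytochrome c oxidase, hands them to oxygen. The proton gradient built on the way drives the ATP synthase. In C. elegans, mutation of isp-1 or nuo-6 and knockdown of several of these genes, cox-5B (formerly cco-1) among them, are known to lengthen life. Most of the subunits are encoded in the nucleus, where the genes below lie, and the rest in the mitochondrial genome. The deposited lists held regions on the 6 nuclear chromosomes and none on the mitochondrial genome, so nothing can be said of the 12 protein-coding genes there.

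The promoter window reached from 1000 bp before any annotated transcript start to 200 bp after it, and a gene with a peak summit in that window is called bound. Positions count from the nearest such start of the gene and are negative upstream. Coordinates are on ce11. In the set over both replicates that the authors named conservative, the main set here, 8 of the 45 genes were bound, 17.8% (95% Wilson interval 9.29 to 31.3, counting error only), where 4.71% of all protein-coding genes were. Among protein-coding genes with a class symbol (letters, hyphen and number, as all 45 have) the bound share was 5.93%. The 8 were cox-5A, cox-5B, cox-6A and cox-6B of complex IV, atp-1 and asb-2 of the ATP synthase, cyc-2.1 for cytochrome c and mev-1 of complex II. None of the 45 genes' complex I or complex III members was among them. Each of these complexes had 7 of the 45 genes, too few to set a count of 0 apart from a share of 4.71%.

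The sequences under 5 of these 8 summits are shown because they are the DNA at the centre of each peak. Each runs 50 bp to either side of the summit, 5′ to 3′ on the strand of the named gene, as read from RefSeq's WBcel235 sequence, which is ce11. Capitals mark the word AGACGCAG or its inner letters GACGCA, on either strand. cox-6B holds neither.
cox-5A (chrIII:12905153-12905253, plus strand): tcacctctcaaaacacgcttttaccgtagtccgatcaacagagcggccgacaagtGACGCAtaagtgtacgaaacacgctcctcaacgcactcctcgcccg
cox-6B (chrIII:2785979-2786079, plus strand): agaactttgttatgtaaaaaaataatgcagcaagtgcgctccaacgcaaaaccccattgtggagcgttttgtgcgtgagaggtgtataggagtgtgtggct
cyc-2.1 (chrIV:4748555-4748655, minus strand): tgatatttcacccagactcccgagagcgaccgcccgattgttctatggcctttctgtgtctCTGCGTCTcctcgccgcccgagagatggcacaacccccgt
mev-1 (chrIII:10334082-10334182, plus strand): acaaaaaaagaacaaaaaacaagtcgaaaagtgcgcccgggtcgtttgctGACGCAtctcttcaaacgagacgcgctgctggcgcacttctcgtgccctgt
asb-2 (chrX:4469443-4469543, plus strand): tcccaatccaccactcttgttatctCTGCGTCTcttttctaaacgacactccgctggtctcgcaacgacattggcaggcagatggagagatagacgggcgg

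The word AGACGCAG, taken from earlier results on these data, lay within 50 bp of the summits of cyc-2.1 and asb-2, 2 of 8. On both strands, 7.27% of the 1637 summits of the main set and 8.15% of the 785 promoter summits had it in a window of the same length. The shorter word GACGCA, which lies inside AGACGCAG and was chosen after these sequences were seen, was also present at cox-5A and mev-1. That made 4 of 8, beside 16.3% of promoter summits. The cox-5A copy was centred about 8 bp downstream of the summit and the mev-1 copy about 3 bp downstream. The windows of cox-5B and atp-1 held neither word. A match to the box B consensus of tRNA genes was in none of the 8 windows and in 1.02% of promoter summit windows. The 8 windows had a median GC content of 54.0%, from 44.6% at cox-6B to 59.4% at cyc-2.1, and all promoter summits a median of 50.5%. Over the 300 bases from 250 upstream of the first start to 50 downstream, the median was 35.3% in the 45 genes and 34.3% in all protein-coding genes. In these 300-base promoters AGACGCAG was found in 1 of the 45 genes, ucr-1, and in 3.54% of all protein-coding genes. The copies at cyc-2.1 and asb-2 lie outside that stretch.

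In the main set, complex IV subunit genes held the 4 strongest peaks of the 45 genes, and 4 of their 7 genes were bound there. The signal of a peak is the authors' strength value, in units the sources do not define, and the main set carries 1 value over both replicates. The value of each replicate was read from the overlapping region of its own ranked list. By these values atp-1, with 77.3 in replicate 1 and 62.4 in replicate 2, lay above cox-6A in replicate 1 and above cox-6B in replicate 2. cox-5A, the gene of a nuclear-encoded cytochrome c oxidase subunit (WBGene00012553, chromosome III, 12905491 to 12906619, plus strand), had a main-set signal of 308, the 34th of 1637 peaks. Its own-list signal was 149 in replicate 1, the 67th of 50249 regions, and 163 in replicate 2, the 31st of 47366. Its peak spans 12905118 to 12905276, with the summit 288 bp before the start. It was inside no other protein-coding promoter.

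cox-5B, a subunit gene on chromosome I (WBGene00000371, 9788725 to 9790050, plus strand), had a main-set signal of 225, the 91st of the set. The replicates gave 113 and 107 in their own lists. Its peak is narrow, 71 bp from 9788656 to 9788726, and the summit lies 6 bp upstream of the first start, while the regions of the replicates are 244 and 230 bp wide. cox-5A and cox-5B were the highest of the 45 genes in each replicate, and both were in the main set, the pooled set and the own sets of both replicates.

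cox-6A (WBGene00006519, chromosome III, 5081724 to 5082995, plus strand) had a main-set signal of 149, with 74.1 in replicate 1 and 82.0 in replicate 2. Its summit was the most distant of the 8, 833 bp upstream. Among all promoter peaks of the main set, 13.4% had their summit within 250 bp of a tRNA, snRNA or snoRNA gene. Of the 8 peaks described here, the one at cox-6A did. Whether the peak belongs to cox-6A or to that neighbour was not tested.

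cox-6B (WBGene00022170, chromosome III, 2699663 to 2786859, plus strand) had a main-set signal of 138. Replicate 1 gave 81.2 and replicate 2 gave 55.0, a ratio of 1.47. The annotation gives this gene a pair of starts that are 86539 bp apart, and the peak (2785899 to 2786158) is 173 bp upstream of the downstream one. The same summit is in the promoters of Y71H2AM.20 on the opposite strand, at position -81, and of nduc-2, at position -823. nduc-2 is named as a complex I subunit gene and is not one of the 45.

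The remaining subunit genes of complex IV were cox-4, cox-6C and cox-7C, and none was bound in any set. cox-4 had its strongest regions at 26.3 in replicate 1 and 26.0 in replicate 2, at different places, positions -343 and 113. cox-6C was listed in replicate 1 alone, at 24.6, and cox-7C in neither replicate. These values lay below those of the 4 bound genes, whose lowest were 74.1 and 55.0.

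The 8 cox genes for assembly of complex IV had no peak in any of the 4 sets. Of all protein-coding genes, 2.46% to 4.71% had one, depending on the set. They include cox-10 and cox-15, which make its heme, and cox-11, cox-17 and cox-19, which act in copper delivery. Their strongest regions ran from 12.4 to 21.1 in the 5 genes listed in replicate 1 and from 8.12 to 31.1 in the 6 listed in replicate 2. cox-14 was highest in replicate 2, with 31.1, and had 17.96 in replicate 1 at an overlapping place. cox-17 was among the lowest of the genes described here, with 8.12 in replicate 2 and no region in replicate 1, and cox-16 was listed in replicate 1 alone, at 13.0.

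**Figure D1:**
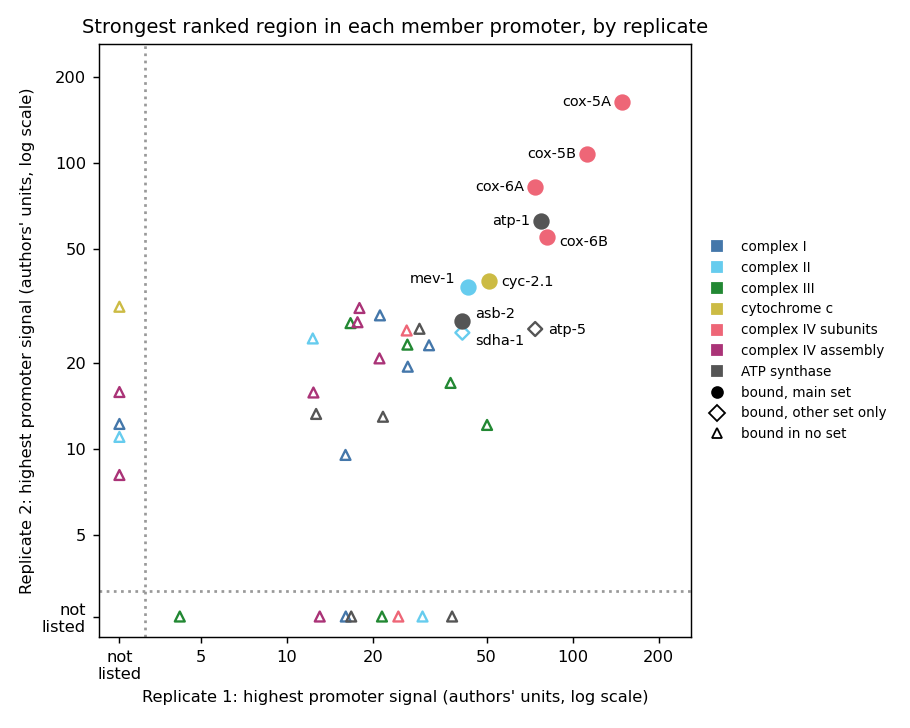
Highest signal of a ranked region with its summit in the promoter, in replicate 1 (x axis) and replicate 2 (y axis), both on log scales in the authors' units, for the 40 genes listed in at least 1 replicate. Each point is a gene, coloured by complex, and genes not listed in a replicate are set beyond the dotted line. The 4 bound complex IV subunit genes and atp-1 lie apart at the upper right, at 74.1 or more in replicate 1 and 55.0 or more in replicate 2.

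The ATP synthase had 2 of 9 genes bound in the main set and 3 in the pooled set, a second set deposited over both replicates. atp-1, which encodes subunit alpha (WBGene00010419, chromosome I, 12652277 to 12654655, plus strand), had a main-set signal of 133, with 77.3 in replicate 1 and 62.4 in replicate 2. Its summit is 22 bp downstream of the start and also in the promoter of mcrs-1 on the opposite strand, at position -212. asb-2, one of a pair of genes for subunit b (WBGene00000207, chromosome X, 4469766 to 4471476, plus strand), had 72.5 in the main set, with 41.0 in replicate 1 and 27.9 in replicate 2. Its summit is 273 bp upstream. asb-2 was in neither replicate's own set, and asb-1, the other gene of that pair, had a single region of 16.8 in replicate 1, 128 bp downstream of its start.

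atp-5, the gene of another ATP synthase subunit (WBGene00007385, chromosome V, 11122901 to 11123867, minus strand), showed the widest gap between the replicates among the genes with a peak in any set. Its peak in the pooled set had a signal of 89.7 and lies 276 bp upstream. At that place replicate 1 gave 73.9, with a peak in its own set, and replicate 2 gave 13.6, a ratio of 5.42. Over the 770 promoter peaks of the main set with a value in both replicates, the median ratio of replicate 1 to replicate 2 was 1.202, with 0.804 and 1.72 at the 10th and 90th percentiles. The 8 members of the main set ranged from 0.903 at cox-6A to 1.47 at cox-6B and asb-2. The atp-5 summit is also in the promoter of lmtr-3 on the opposite strand, at position -43, and atp-5 was not in the main set. atp-2, the gene of the catalytic subunit beta, had 37.9 in replicate 1 and no region in replicate 2. atp-3 had 29.1 and 26.3 in its strongest regions, at different places, and had the highest mean percentile within the lists among genes bound in no set. Replicate 1 also listed an atp-3 region at position -16 from the first start, near that of replicate 2 at position -2. asg-2, for subunit g, had 21.7 and 13.0 at overlapping places, and asg-1 had no region. The strongest regions of atp-4, with 12.7 and 13.3, were at different places, positions 8 and -667. Replicate 2 also listed a weaker atp-4 region at position 49.

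cyc-2.1, one of a pair of cytochrome c genes (WBGene00017121, chromosome IV, 4747895 to 4749012, minus strand), had a main-set signal of 93.8, with own-list values of 50.9 in replicate 1 and 38.7 in replicate 2. This gene was in the own set of replicate 1 and not of replicate 2. Its peak (4748475 to 4748734) lies 156 bp upstream of the downstream start but 407 bp inside the gene from the upstream start, 563 bp away. The summit is also in the promoter of tctn-1, at position -773, and rpl-20, a ribosomal protein gene on the same strand, ends 110 bp before cyc-2.1 begins. A further peak of signal 331, the 24th of the set, spans 4749997 to 4750126, at position -1052 from the first start of cyc-2.1 and so just outside the window. The nearest start to it is that of Y17G9B.5, where it is at position -176. rpl-20 was itself bound in the main set and in the own sets of both replicates. Whether the peak of signal 331 belongs to rpl-20 was not tested. cyc-2.2, the other cytochrome c gene, had a region of 31.4 in replicate 2, at position -807, and none in replicate 1.

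In complex II, mev-1 and sdha-1 had peaks. mev-1, whose product is the cytochrome b subunit that anchors succinate dehydrogenase in the membrane (WBGene00003225, chromosome III, 10334277 to 10335168, plus strand), had 81.9 in the main set, with 43.1 in replicate 1 and 36.8 in replicate 2. The summit is at position -145 from mev-1 and at -114 from jmjd-4 on the opposite strand. mev-1 was in neither replicate's own set. sdha-1, the flavoprotein subunit gene on chromosome X (WBGene00015391, 8542757 to 8546021, minus strand), had a peak of 66.6 in the pooled set, 175 bp upstream, with 41.1 in replicate 1 and 25.5 in replicate 2. It missed the main set narrowly: the irreproducible discovery rate (IDR), which estimates how many regions at that rank or better fail to repeat, was 0.0104, where the limit is 0.01. The summit lies 8 bp inside the 5′ end of the snoRNA gene D2021.6. sdha-2 had 12.3 and 24.3, sdhb-1 had 29.8 in replicate 1 alone, at position -985, and sdhd-1 had 11.0 in replicate 2 alone.

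Of the 7 complex I genes, none was bound in any set, where 2.46% to 4.71% of all protein-coding genes were. Their strongest regions ran from 16.1 to 31.5 in replicate 1 and from 9.54 to 29.3 in replicate 2. nuo-2, a core subunit gene, came nearest. It had 31.5 and 23.04 at overlapping places, positions -134 and -145, and an IDR of 0.0360 over both replicates. nuo-4 had 21.2 and 29.3, and nuo-5, whose product is the large iron-sulfur subunit, had 26.5 and 19.4, downstream of its start in both replicates. gas-1, another core subunit gene, was listed in replicate 2 alone, at 12.2, nuo-1 in replicate 1 alone, at 16.1, and nuo-3 had 16.1 and 9.54 at different places. nuo-6 had no region in either replicate.

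The 7 genes of complex III were likewise bound in no set, beside the same 2.46% to 4.71% of all protein-coding genes. ucr-2.1, one of the genes for core protein 2, reached 50.2 in replicate 1, the highest value among genes bound in no set, but 12.1 in replicate 2 at an overlapping place. isp-1, which encodes the Rieske iron-sulfur protein, had 37.4 and 17.02, again higher in replicate 1. ucr-1 had 16.7 and 27.5 at different places, and cyc-1, the cytochrome c1 gene, had 21.5 in replicate 1 alone. The strongest regions of ucr-2.2, with 26.4 and 23.2, were also at different places, positions 135 and -267. Replicate 2 listed a weaker ucr-2.2 region at position 138. ucr-2.3 had the lowest value of all listed members, 4.23 in replicate 1, and ucr-11 had no region.

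**Figure D2:**
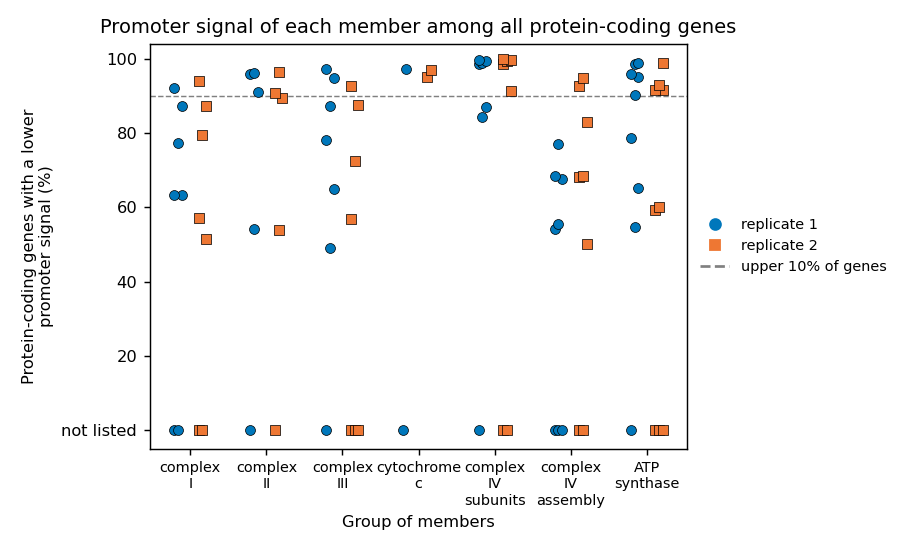
Share of the 19973 protein-coding genes with a lower highest promoter signal (y axis, percent) for each member, by complex (x axis), with circles for replicate 1 and squares for replicate 2. Genes without a region are drawn at the bottom as not listed, and points above the dashed line are in the upper 10% of genes. In the complex IV subunit group 4 of 7 genes lie near the top in both replicates.

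With regions below the peak threshold counted as well, most of the 45 promoters held a ranked region, but so did many others. Replicate 1 listed a region in 35 of 45, where 51.3% of all protein-coding genes had one, and replicate 2 in 32, where 50.9% had one. In 27 of 45 both replicates listed a region (34.9% of all genes), and in 18 the strongest regions of the replicates overlapped (20.5% of all genes). With genes without a region counted as 0, the median promoter signal of the 45 was 21.2 in replicate 1 and 17.02 in replicate 2, and that of all protein-coding genes was 8.75 and 8.13. Among the uppermost 10% of all genes by promoter signal were 16 of the 45 in replicate 1 and 17 in replicate 2, and 11 in both, where 5.50% of all genes were in both. These 11 were the 10 genes with a peak in any set and atp-3. For atp-5 and atp-3 the strongest regions of the replicates lay at different places, and that of replicate 2 at atp-5 had 26.3 at position -849.

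Neither replicate listed a region for nuo-6, ucr-11, cox-7C, cox-19 and asg-1, 5 of 45, where 32.7% of all protein-coding genes had none. All 5 lie on chromosome I, which holds 12 of the 45 genes and where 27.4% of all protein-coding genes had none. The region of replicate 1 closest to a start was at position 512 for cox-7C, -1001 for nuo-6, 958 for asg-1, 1007 for ucr-11 and 1026 for cox-19. That of replicate 2 was at 240 for ucr-11 and farther for the others. Chromosome III held 11 of the 45 genes and 4 of the 8 bound ones, cox-5A, cox-6A, cox-6B and mev-1, where 7.05% of all protein-coding genes of that chromosome were bound. Chromosomes II and V, with 5 members each, held none of the 8, where 4.76% and 2.86% of their genes were bound.

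Each peak set gave its own count. The pooled set bound 10 of the 45 genes, where 4.70% of all genes were bound, the own set of replicate 1 bound 7 (3.19%) and that of replicate 2 bound 5 (2.46%). cox-5A, cox-5B, cox-6A, cox-6B and atp-1 were in all 4 sets. The main peaks of these 5 genes, of 8, overlapped an own-set peak of both replicates, where 36.7% of all promoter peaks of the main set did. The others, cyc-2.1, mev-1 and asb-2, had main-set signals of at most 93.8, and the 5 had at least 133.

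**Figure D3:**
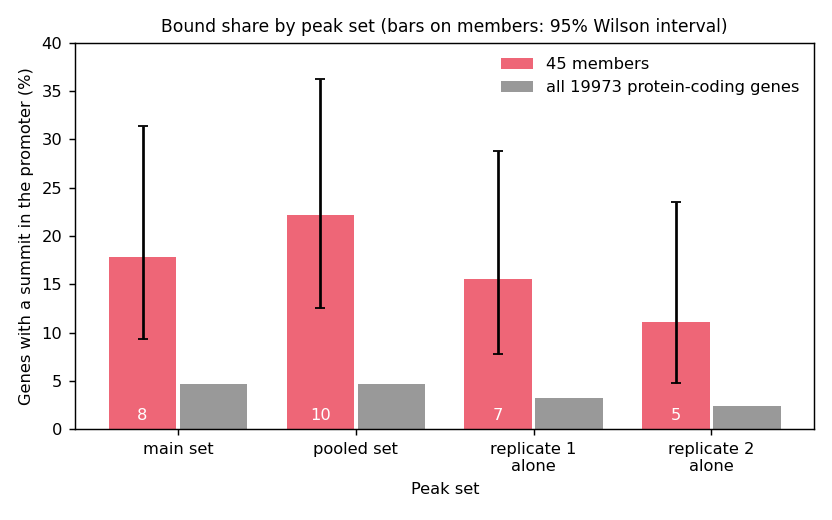
Share of genes with a summit in the promoter (y axis, percent) in each of the 4 peak sets (x axis), for the 45 members, with their number in white and 95% Wilson intervals for counting error, and for all 19973 protein-coding genes. The members' share runs from 11.1% to 22.2% and that of all genes from 2.46% to 4.71%.

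The 8 member peaks had a median signal of 136 in the main set, from 72.5 to 308, and 6 of them lay above 92.0, the median of all 785 promoter peaks. Measured from the member's own start, the summits ranged from 833 bp upstream to 22 bp downstream with a median of -164.5 bp, and 5 of the 8, cox-5A, cox-6B, cyc-2.1, mev-1 and asb-2, lay between 300 and 100 bp upstream. Measured from the nearest start of any protein-coding gene, which is another gene's at cox-6B and mev-1, the median was -135 bp for the 8 and -243 bp for all promoter peaks. By that measure 4 of the 8 and 34.8% of all promoter summits lay between 300 and 100 bp upstream. cox-5B and atp-1 lay at their starts and cox-6A far upstream. Of the 8 summits, 4 were also in the promoter of another protein-coding gene, as were 26.5% of all promoter summits, so their assignment to the member is not exclusive.

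**Figure D4:**
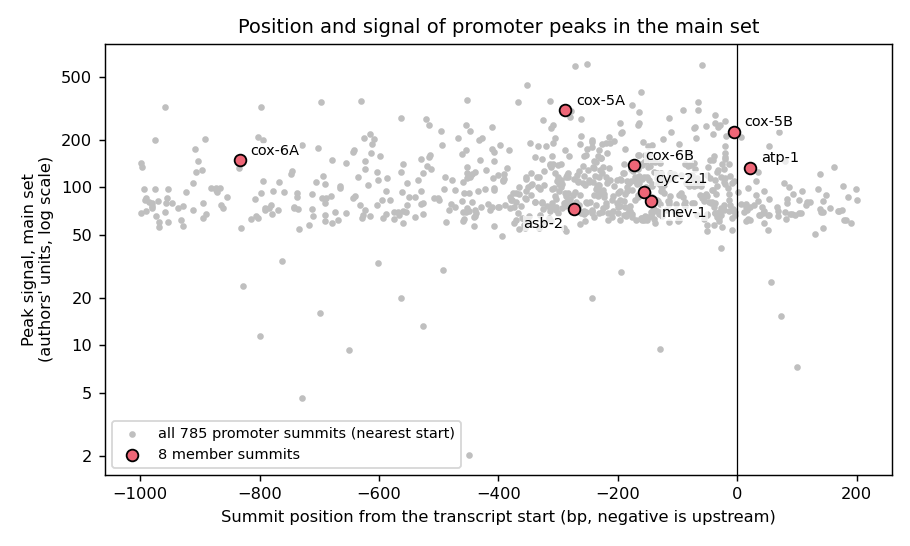
Summit position from the transcript start (x axis, bp, negative is upstream) and main-set signal (y axis, log scale, authors' units) of the 8 member peaks (red, from the member's own start) and of all 785 promoter peaks (grey, from the nearest start of any protein-coding gene). cox-6A stands apart at 833 bp upstream, and cox-5B and atp-1 lie at the start.

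A same-strand gene that ended at most 500 bp upstream of the first start was present at 16 of the 45 genes, where 18.1% of all protein-coding genes had one. In C. elegans such close neighbours are often transcribed together as operons, which the annotation used here does not mark. Of these 16 genes 1 was bound, cyc-2.1 behind rpl-20, and of the other 29 genes 7 were. Among all protein-coding genes the bound shares were 3.54% with such a neighbour and 4.97% without. Outside the member's own promoter, 10 summits of the main set lay within 2000 bp of 8 of the genes. At nuo-4, ucr-1, cyc-2.1, cox-19 and atp-2 one lay 78 to 217 bp past the end of the gene. Several of the 10 are in the promoter of another gene. The one past cyc-2.1 is at position 37 of tctn-1, and the one past atp-2 at position 44 of prmt-5. Summits near ucr-11, atp-4 and cox-6B are at position -51 of tre-1, -216 of T05H4.11 and -166 of swsn-3.

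Other genes that serve respiration were counted in further lists, against the same 4.71% of all protein-coding genes. Of 16 citric acid cycle genes 5 were bound in the main set, aco-2 for aconitase with a signal of 131, dld-1 for dihydrolipoamide dehydrogenase with 81.1, suca-1 for a succinyl-CoA ligase subunit with 70.6, fum-1 for fumarase with 68.2 and idh-2 for isocitrate dehydrogenase with 62.1. None of these 5 was in the own set of replicate 2. Of 4 adenine nucleotide carriers, which exchange ATP and ADP across the inner membrane, ant-1.1 was bound, with a main-set signal of 149.7 and own-list signals of 75.5 and 74.5. Of 8 further subunit and assembly genes 3 were bound. These were sco-1, for a copper chaperone of complex IV, with 190.3, and mai-1 and mai-2, for ATP synthase inhibitors, with 98.2 and 74.2.

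Of 11 import and chaperone genes, the mitochondrial chaperone genes hsp-60, with 209.8, and hsp-6, with 71.3, were bound. None of the 8 coenzyme Q synthesis genes was. The peaks of aco-2, idh-2, ant-1.1, hsp-6 and hsp-60 are also in the promoter of another protein-coding gene. A list added after nduc-2 was seen beside cox-6B, the 25 genes with symbols that start with ndu and are named for complex I, had 3 bound, nduc-2, nduf-2.2 with a main-set signal of 125 and nduf-9 with 143. All 3 were in the own sets of both replicates, at positions -823, -840 and -655. The nduf-2.2 summit is also in the promoter of dlc-1. The count of 0 bound complex I genes above thus holds for the nuo genes and gas-1 only.

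In lists of like kind, 6 of 70 mitochondrial ribosomal protein genes were bound in the main set (8.57%). So were 26 of 81 cytosolic ribosomal protein genes (32.1%) and 6 of 20 vacuolar ATPase genes (30%). The share was 17.8% of the 45 genes and 4.71% of all protein-coding genes, so the cytosolic ribosomal and vacuolar ATPase lists had higher shares than the 45. In the own sets of both replicates as well as the main set were 5 of the 45 genes, 1 of 70, 17 of 81 and 0 of 20, where 1.95% of all protein-coding genes were. Promoter peaks had a median main-set signal of 136 in the 45 genes, 87.0 in mitochondrial ribosomal, 163 in cytosolic ribosomal and 83.2 in vacuolar ATPase genes. Differences between these lists were not tested.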

How the data were processed

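Peak lists on ce11 from 2 replicates of 1 group were used. The control library behind them is not analysed here. Per the file headers and labels, the authors deposited ranked regions and IDR-thresholded peaks, per replicate and over both replicates. Aligner and caller: not given in the sources used here. In the main set the deposited score, a scaled IDR, is at least 830. The deposited signal is the authors' strength value, whose scale is not stated. Its lists are set side by side, by rank, or as a ratio of replicates read only against that ratio over all promoter peaks, since their scales may differ. Genes came from Ensembl release 115 (WBcel235, which ce11 names), sequence from RefSeq's copy. Python 3.11.15 with scipy 1.17.1 assigned summits to promoters, and the assignment was tested on simulated data. Replicate values at a peak came from the ranked region that shared most bases with it (minimum 1 bp). Named were all genes with a peak in any set, the 5 highest and 5 lowest others by mean percentile, those without a region and, from the added lists, bound genes, and further members by complex. Members, lists and the word AGACGCAG were chosen with earlier results of these data known, so no set test was made. Whether replicates came from separate cultures is not stated beyond the label of biological replicate. Symbols of the mitochondrial genome matched no annotated gene and were left out. Alternatives covered the peak set, the promoter window, the starts, the assignment and the replicates. The sequence at the cox-6A summit is not reported here.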

Additional observations from a re-analysis of the deposited data

How the results depend on the processing

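The count of 8 bound members was 6 to 10 in the alternatives with both replicates. It was 5 without replicate 1 and 7 without replicate 2, each the own set of the replicate that is left. mev-1 and asb-2 were lost in both of these and in the upper 50% of peaks by signal, cox-6A with a window of 500 and 100 bp or without summits near tRNA, snRNA and snoRNA genes (added after seeing the data), cox-6B and cyc-2.1 with one start per gene, and mev-1 and cox-6B with the nearest start only. A window of 2000 and 500 bp added ucr-11. The bound share of all protein-coding genes, 4.71%, was 2.72% in the upper 50% by signal, 2.46% to 3.19% with a replicate left out, 3.49% in the narrow and 6.69% in the wide window, 4.28% with one start per gene, 3.68% with the nearest start only, 5.07% with any overlap of the peak, 4.15% without summits near short noncoding genes and 5.93% among genes with a class symbol. The median member signal of 136 was 113 in the pooled set and 58.7 to 75.7 with a replicate left out, which reads that replicate's own list. The median position of -164.5 bp was -174 bp in the pooled set, -161 to -155 bp with a replicate left out, -156 bp in the narrow and -273 bp in the wide window, where ucr-11 is added and the peak at -1052 stands for cyc-2.1. Asking for at least 50% of both intervals left 4 of the 5 main peaks shared with both replicates. The word count of 2 was 4 with GACGCA. No paired analysis was possible because there is 1 group. Depth is unknown, so a promoter without a region may hold binding that was not detectable.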
